A study of Homo sapiens with 3 samples.

Results

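The genes described here encode proteins of the lysosome. They are 45 listed genes, comprising the MiT/TFE transcription factors, membrane glycoproteins, proteases, glycan-degrading enzymes, lipid-handling proteins, ion channels and transporters, and subunits of the vacuolar proton pump (V-ATPase). Each was matched by its gene symbol to the annotation of the arrays, and 44 had a transcript cluster (the set of probes that is summarised into 1 value) with no other symbol, out of 19208 such genes on the array. The exception was ATP6V0D1, whose only cluster is also annotated to LOC100132855. Its values are given but it is left out of the counts. RNA came from LNCaP, an androgen-responsive line of human prostate cancer cells. There were 3 conditions with 1 Affymetrix Human Gene ST array each: control cells, cells given 70 µg/ml n-butylidenephthalide (BP) for 3 h, and cells given the same dose for 24 h. BP is a compound of the medicinal plant Angelica sinensis. For the control cells, the sample labels state no vehicle and no harvest time. The title of the series names DMSO, which the paper also gives as the control of its viability assay. All values are the log2 values that the authors deposited, and all differences are BP minus control on the log2 scale unless stated otherwise.

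The lysosome is the acidic compartment in which cells digest proteins, glycans and lipids delivered by endocytosis and autophagy. Its lumen is acidified by the V-ATPase, in which the cytosolic V1 sector hydrolyses ATP and the membrane-embedded V0 sector carries protons. The transcription factors TFEB, TFE3 and MITF activate many lysosomal and autophagy genes through short E-box elements in their promoters, and mTORC1 at the lysosomal surface holds TFEB and TFE3 in the cytoplasm when nutrients are plentiful.

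With a single array for a condition, differences could not be tested, and precision is limited by how few arrays there are. A gene was counted as higher or lower when it differed from control by at least 2-fold, and 1.5-fold was used as a lower threshold. For most counts of lysosomal genes, the percentage of all 19208 genes past the same threshold is given as background. Since many dim genes hardly vary, the percentage among the 9604 genes whose mean over the 3 arrays lay above the median level of 6.06 is given as well. Of the 44 lysosomal genes, 41 lay above that level, the exceptions being LAMP3, MITF and CTSS. Because all lists were chosen with earlier results of these data known, their comparisons with background are descriptions only. The median over all clusters was 5.48 on the control array, 5.46 at 3 h and 5.48 at 24 h. RNA came from whole cultures, so a smaller share of cells expressing a gene and less RNA per cell cannot be told apart.

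The promoters of lysosomal genes are known for the E-box letters CACGTG, and for GTCACGTG, the core of the element bound by the MiT/TFE factors. Sequences are shown for genes whose deposited 24 h value differed from control and for genes where it was equal. RefSeq promoters (build GRCh38.p14, 250 bases before to 50 bases after the start site) were matched to 32 of the 45 genes, and both strands were searched. The stretches below run 5′ to 3′ on the gene's strand and hold all CACGTG and GTCACGTG matches of each window with the flanking bases, the matches in capitals. NEU1 (chr6:31862902-31862987, minus strand), CD63 (chr12:55729144-55729229, minus strand) and CLCN7 (chr16:1475010-1475115, minus strand) are shown because they were at least 1.5-fold higher at 24 h. CTSD (chr11:1763927-1764014, minus strand) and LAMP1 (chr13:113297005-113297285, plus strand) are shown because their 24 h values lay above control by less than 1.5-fold, and MCOLN1 (chr19:7522541-7522657, plus strand) and CLN3 (chr16:28492030-28492144, minus strand) because their 24 h values equalled control. GPNMB (chr7:23246525-23246824, plus strand) is shown whole because it had the largest difference of the lysosomal genes and no CACGTG. Its capitals mark CACATGA, which is TCATGTG on the other strand, a letter string that was searched only after its window and the expression values had been seen.
NEU1: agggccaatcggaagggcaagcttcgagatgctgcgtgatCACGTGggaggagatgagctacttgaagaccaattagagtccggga
CD63: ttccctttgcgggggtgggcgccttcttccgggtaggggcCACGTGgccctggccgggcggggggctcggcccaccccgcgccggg
CLCN7: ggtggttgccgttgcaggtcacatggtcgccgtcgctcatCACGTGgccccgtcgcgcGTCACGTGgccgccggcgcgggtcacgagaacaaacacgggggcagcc
CTSD: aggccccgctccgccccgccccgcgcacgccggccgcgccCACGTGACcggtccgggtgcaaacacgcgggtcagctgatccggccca
LAMP1: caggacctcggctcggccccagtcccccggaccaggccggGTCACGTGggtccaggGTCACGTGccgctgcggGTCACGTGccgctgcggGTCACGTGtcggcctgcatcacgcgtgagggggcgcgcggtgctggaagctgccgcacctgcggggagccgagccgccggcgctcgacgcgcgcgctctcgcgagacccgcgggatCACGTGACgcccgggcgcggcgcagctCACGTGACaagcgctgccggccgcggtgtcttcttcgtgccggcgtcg
MCOLN1: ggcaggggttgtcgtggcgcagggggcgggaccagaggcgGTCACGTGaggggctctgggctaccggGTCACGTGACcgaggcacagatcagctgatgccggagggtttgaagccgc
CLN3: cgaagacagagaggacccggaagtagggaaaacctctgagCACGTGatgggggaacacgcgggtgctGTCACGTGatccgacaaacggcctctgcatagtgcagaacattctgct
GPNMB: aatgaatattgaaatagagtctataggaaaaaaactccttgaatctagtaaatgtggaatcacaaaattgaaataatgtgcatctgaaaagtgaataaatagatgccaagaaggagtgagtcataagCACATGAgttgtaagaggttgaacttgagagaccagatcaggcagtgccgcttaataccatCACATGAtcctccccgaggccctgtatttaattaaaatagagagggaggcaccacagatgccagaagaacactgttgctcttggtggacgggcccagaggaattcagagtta

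CACGTG was found in 11 of the 32 lysosomal promoters (34.4%) and in 7.43% of all 27305 promoters of the same length. The 11 were those of LAMP1, CD63, CTSA, CTSD, NEU1, MCOLN1, CLCN7, CLN3, ATP6V0B, ATP6V0D1 and ATP6V1G1. GTCACGTG, which contains CACGTG, was found in 9 of the 32 (28.1%) and in 2.53% of all promoters. LAMP1 had 6 matches of CACGTG, all within the longer motif, the farthest 192 bases before the start site and the nearest 1 base before it. In MCOLN1 the string GTCACGTGAC reads as the longer motif on both strands and counts as overlapping matches. A match describes the letters of the window and says nothing about binding in these cells.

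CACGTG was present both in genes at least 1.5-fold higher at 24 h and in genes whose deposited 24 h value equalled control. Of the latter, CTSA and CLN3 had the same value on all 3 arrays, so how far their RNA varied cannot be read. Of the 10 genes with CACGTG and a value of their own, 3 (NEU1, CD63 and CLCN7) were at least 1.5-fold higher at 24 h, 4 (CTSA, MCOLN1, CLN3 and ATP6V1G1) had exactly the control value, and the median difference was 0.23. Of the 21 genes without CACGTG, 4 were at least 1.5-fold higher, 6 had the control value and the median difference was 0. LAMP3, MANBA and ATP6V1H, each at least 1.5-fold higher at 24 h, had no promoter among the 32 and are in neither group. With the longer motif, the median difference was 0.08 over 8 genes, of which 1 was at least 1.5-fold higher, against 0 over 23 genes without it, of which 6 were. TCATGTG was found in 5 of the 32 promoters (15.6%), those of GPNMB, TPP1, CD63, SCARB2 and CTSA, and in 2.99% of all promoters. GPNMB, TPP1 and CD63 were at least 1.5-fold higher at 24 h, while SCARB2 and CTSA were not. Because TCATGTG was chosen from the window of GPNMB, its share among these genes is a description only.

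At 3 h the lysosomal genes lay close to control. MANBA alone of the 44 genes was at least 1.5-fold higher, with a background of 1.55% of all genes and 2.25% of genes above the median level. No gene was at least 1.5-fold lower (background 0.401% and 0.312%) or at least 2-fold higher (background 0.344% and 0.541%). The 3 h value was above control for 26 genes (59.1%), below it for 9 and equal for 9 (20.5%). Above control were 31.2% of all genes and 52.1% of genes above the median level, and equal to it 41.1% and 25.1%. The median difference was 0.04, which turned to -0.04 when each array was centred on its 75th percentile and to -0.02 after quantile normalization, so the lysosomal genes as a list had no settled direction at 3 h.

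At 24 h, 4 of the 44 lay 2-fold or more above control, GPNMB, LAMP3, MANBA and NEU1, where 1.53% of all genes were. None was at least 2-fold lower, against 2.11% of all genes. At the 1.5-fold threshold 10 genes (22.7%) were higher, the others being TPP1, ATP6V1H, CD63, TFE3, ATP6V1E1 and CLCN7, with a background of 4.49%, and NPC1 alone was lower, with a background of 4.04%. Among genes above the median level, 3 of the 41 lysosomal genes were at least 2-fold higher where 2.48% of all such genes were. At 1.5-fold, 9 of the 41 (22.0%) were higher against 7.39%, and 1 was lower against 6.87%. The median difference at 24 h was 0.17 over the 44 genes and 0.18 over the 41, and 0 over all genes and over all genes above the median level. The list was 0.15 to 0.18 above control under every scaling and filter tried. It was chosen with earlier results of these data known, so its excess over background is a description only.

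**Figure D1:**
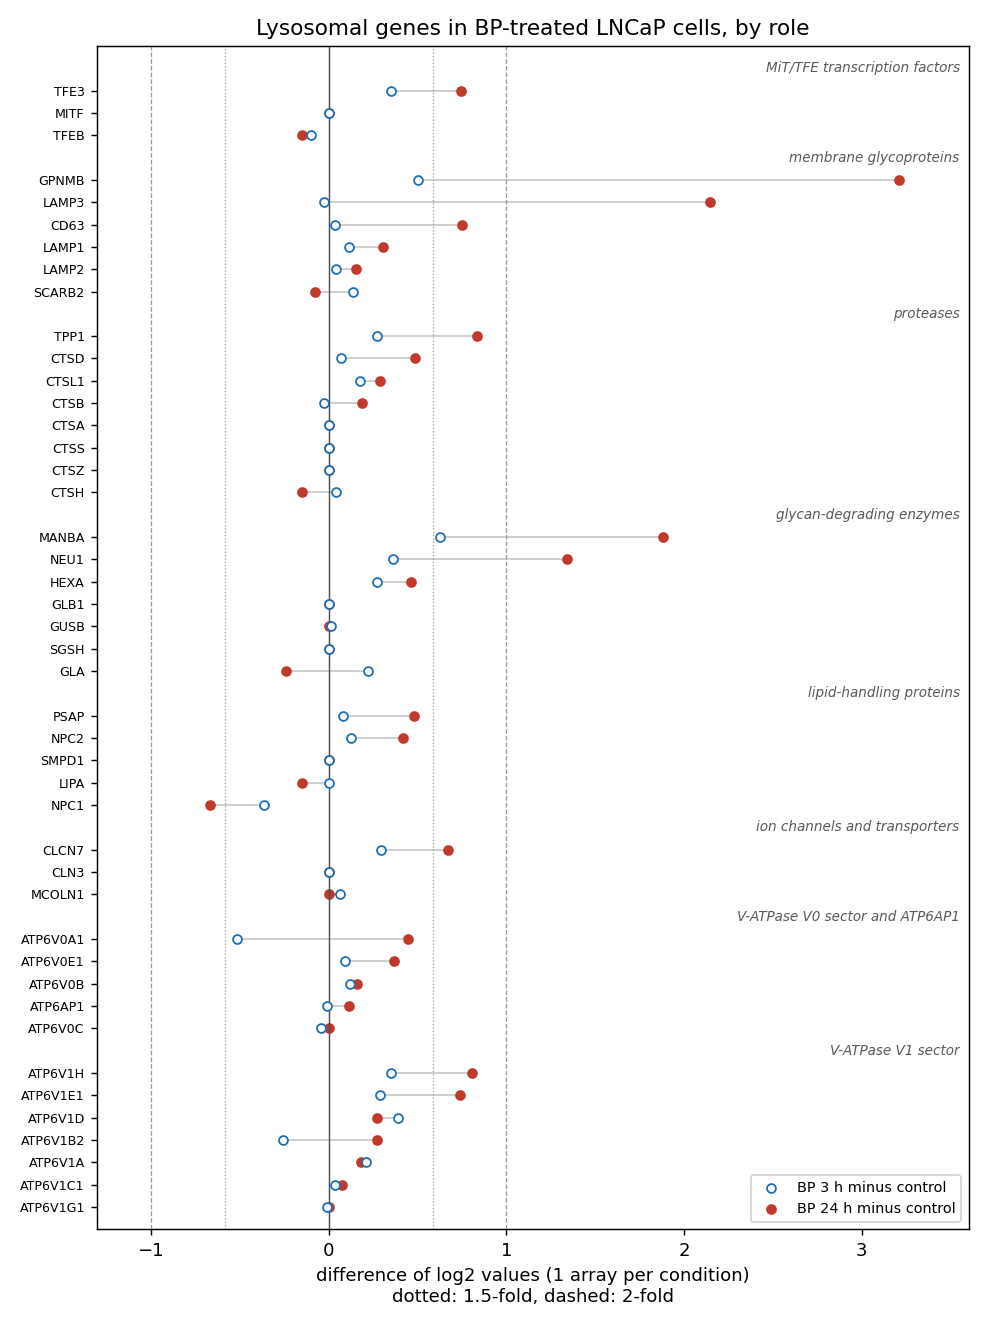
Difference from control of the 44 lysosomal genes at 3 h (open circles) and 24 h (filled circles) on the log2 scale, grouped by role and ordered by the 24 h difference, with 1 array per condition. Dotted lines mark 1.5-fold and dashed lines 2-fold. GPNMB, LAMP3, MANBA and NEU1 lie past 2-fold at 24 h, NPC1 lies past 1.5-fold on the lower side, and the 3 h values lie between -0.52 and 0.63.

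The differences were uneven within the list. The 24 h value was above control for 26 genes (59.1%), below it for 6 and exactly equal for 12. Of all genes 25.4% lay above control, and of genes above the median level 38.8%. Exactly equal to control were 46.7% of all genes and 26.1% of genes above the median level, beside 27.3% of the lysosomal genes. For 8 genes (18.2%) the deposited value was the same on the 3 arrays, a property of 34.2% of all genes and 16.9% of genes above the median level. These were MITF, CTSA, CTSS, CTSZ, GLB1, SGSH, SMPD1 and CLN3. The origin of exactly repeated values was not tested. For these 8 genes the files show no difference, and how far their RNA varied cannot be read from them.

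Between 3 h and 24 h of BP, 6 lysosomal genes were at least 1.5-fold higher at the later time. These were GPNMB, LAMP3, MANBA, NEU1, ATP6V0A1 and CD63. The background was 2.45% of all genes and 3.71% of genes above the median level. No lysosomal gene was at least 1.5-fold lower, against 5.12% and 8.59%. The median difference of 24 h minus 3 h was 0.08, and became 0.16 with quantile normalization and 0.13 with centring at the 75th percentile. This comparison shares the 3 h array and the 24 h array with those above and is no separate evidence.

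Among the transcription factors that control lysosomal genes, TFE3 was the one that was higher. TFE3 had a log2 value of 7.02 (control), 7.37 (3 h) and 7.77 (24 h). It was highest at 24 h, by 0.75 or 1.68-fold, and lay between at 3 h. TFEB, its close relative and the best studied regulator of lysosome biogenesis, had values of 6.37, 6.27 and 6.22, so that the control array was the highest and the differences were -0.10 at 3 h and -0.15 at 24 h. MITF, the member of the family that directs melanocyte development, was at 5.85 on each array, below the median level of genes.

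The membrane glycoproteins had the 2 genes with the largest 24 h differences of the list. GPNMB (transcript cluster 8131844, cytoband 7p15) encodes a glycoprotein of melanosomes and lysosomes and is a known target of the MiT/TFE factors. Its log2 value was 6.23 (control), 6.73 (3 h) and 9.44 (24 h). The 24 h array stood apart, 9.23-fold above control, while the 3 h array was 1.42-fold above it. GPNMB ranked 3 of 19208 genes by its increase at 24 h, and 2.70 of its difference of 3.21 lay between 3 h and 24 h. LAMP3 (transcript cluster 8092348, cytoband 3q26.3-q27), a lysosome-associated membrane protein first described in dendritic cells, had values of 4.66, 4.63 and 6.80. The control and 3 h arrays were nearly level and the 24 h array was 4.43-fold above control, a difference of 2.15 and rank 28 of all genes. Its control and 3 h values lay below the median level of genes, so the fold is of a gene that was dim in control cells.

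CD63, a tetraspanin of late endosomes, lysosomes and exosomes, was also higher, but only at the later time. Its values were 8.57 (control), 8.61 (3 h) and 9.32 (24 h), which is 1.68-fold above control at 24 h. The structural glycoproteins of the lysosomal membrane differed by less. LAMP1 had values of 8.12, 8.23 and 8.43, a 24 h difference of 0.31, and LAMP2 had values of 9.45, 9.49 and 9.60, a difference of 0.16. SCARB2 (LIMP-2), the receptor that carries glucocerebrosidase to lysosomes, was highest at 3 h, with values of 9.67, 9.80 and 9.59. The median difference of the 6 glycoproteins at 24 h was 0.53, and 0.31 over the 5 without LAMP3.

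**Figure D2:**
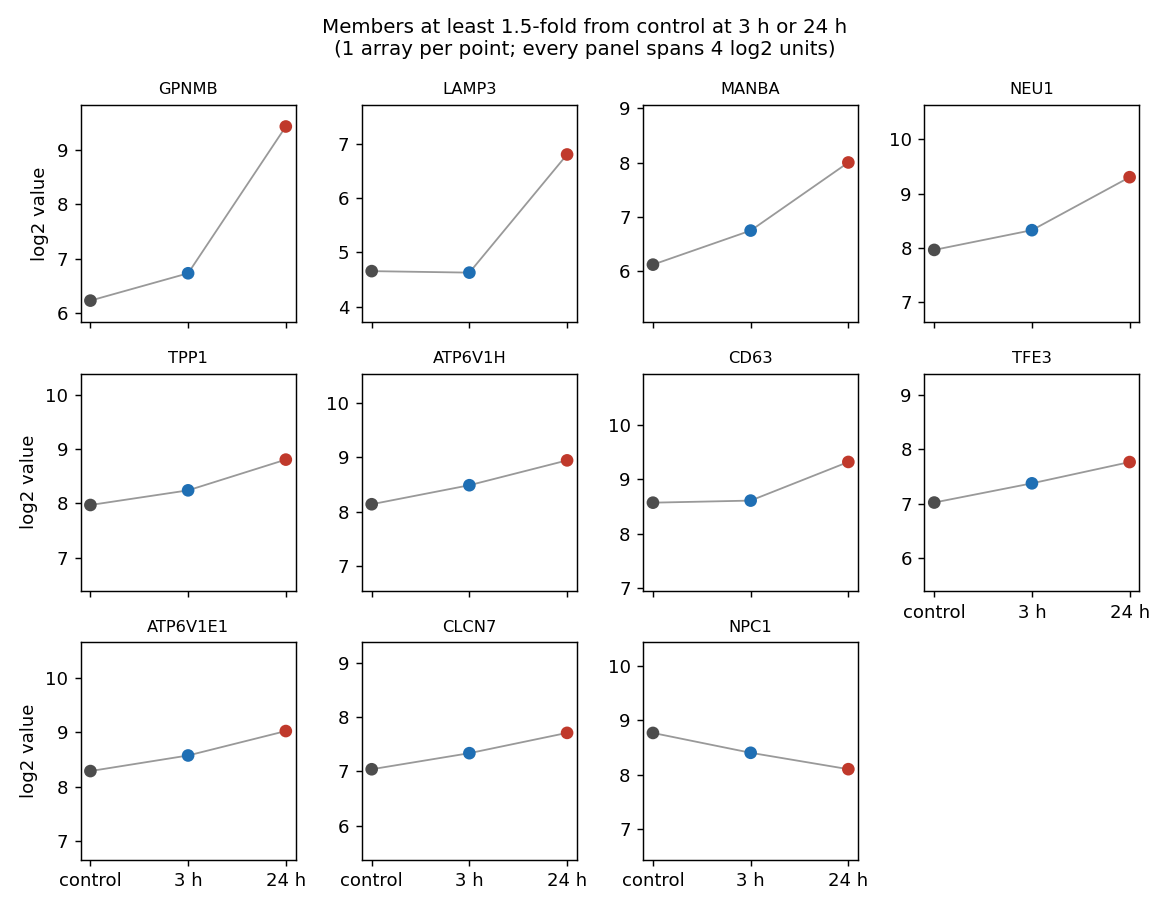
Log2 value on each array for the 11 lysosomal genes at least 1.5-fold from control at 3 h or 24 h, with 1 array per point and 4 log2 units on every vertical axis. The lines join arrays of different cultures and mark order only. GPNMB and LAMP3 differ mainly between 3 h and 24 h, TFE3, TPP1, ATP6V1H, ATP6V1E1 and CLCN7 lie between control and 24 h at 3 h, and NPC1 is highest in control cells.

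Of the 8 proteases, TPP1 passed 1.5-fold. TPP1 is tripeptidyl peptidase 1, which removes tripeptides from the ends of proteins and is deficient in a childhood form of neuronal ceroid lipofuscinosis. Its values were 7.97 (control), 8.24 (3 h) and 8.80 (24 h), a 24 h difference of 0.84 or 1.79-fold, with the 3 h array between. CTSD, the main aspartic protease of lysosomes, had values of 9.18, 9.25 and 9.66. Its 24 h value was the highest, by 0.49 or 1.40-fold, short of the lower threshold. The cysteine proteases CTSL1 (cathepsin L, now named CTSL) and CTSB lay above control by 0.29 and 0.19 at 24 h, and CTSH lay below it by 0.15. The carboxypeptidases CTSA and CTSZ and the cysteine protease CTSS had the same deposited value on the 3 arrays, 8.17, 8.15 and 3.28 in this order. CTSS, which is known from antigen-presenting cells, lay below the median level of genes.

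The 24 h differences of the 7 glycan-degrading enzymes ran from -0.24 to 1.88, and 3 genes had exactly the control value. MANBA (transcript cluster 8102006, cytoband 4q22-q25) is beta-mannosidase, which removes the last mannose in the breakdown of N-linked glycans. Its values were 6.12 (control), 6.75 (3 h) and 8.00 (24 h). It stood 1.54-fold above control at 3 h and 3.68-fold above it at 24 h, with rank 52 of all genes at the later time, and was the only gene of the list past 1.5-fold at both times. NEU1 (transcript cluster 8178676, cytoband 6p21.3), the lysosomal sialidase, which works in a complex with CTSA and GLB1, had values of 7.96, 8.33 and 9.30. These are 1.29-fold and 2.53-fold above control. NEU1 was the 1 gene of the list with several clusters, and its other 2 clusters had the same control and 3 h values and 9.24 at 24 h, which is 2.43-fold higher. The partners of NEU1 had no difference in the files, since GLB1 was at 7.92 and CTSA at 8.17 on every array.

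HEXA, the alpha subunit of beta-hexosaminidase that is lost in Tay-Sachs disease, had values of 7.27, 7.54 and 7.73 and lay 0.46 above control at 24 h. GLA, the alpha-galactosidase of Fabry disease, had 6.62, 6.84 and 6.38, above control at 3 h and below it at 24 h. GUSB, beta-glucuronidase, had 8.96, 8.98 and 8.96. SGSH, a heparan sulfatase, was at 7.14 on each array. The median difference of the group was therefore 0 at 24 h although its highest member was MANBA at 1.88.

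Among the lipid-handling proteins, NPC1 was lower in BP-treated cells, the only gene of the list at least 1.5-fold below control. NPC1 is the membrane protein that passes cholesterol out of lysosomes. Its log2 value was 8.77 (control), 8.41 (3 h) and 8.10 (24 h). Control was the highest array, and the 24 h array was 1.59 times lower, a difference of -0.67. NPC2, the soluble protein that hands cholesterol to NPC1, had values of 7.93, 8.06 and 8.35, with 24 h the highest by 0.42, so the 24 h differences of these partners had opposite signs. PSAP, the precursor of the saposins that help enzymes reach sphingolipids, had values of 10.35, 10.43 and 10.83, a 24 h difference of 0.48. LIPA, the lysosomal acid lipase, lay 0.15 below control at 24 h, and the acid sphingomyelinase gene SMPD1 was at 8.14 on each array.

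Of the 3 ion channels and transporters, CLCN7 was higher. CLCN7 is the chloride-proton exchanger of the lysosomal membrane, which forms a complex with OSTM1. Its values were 7.04 (control), 7.33 (3 h) and 7.71 (24 h), which is 1.59-fold above control at 24 h, with the 3 h array between. MCOLN1, the calcium-permeable channel TRPML1, had values of 7.43, 7.49 and 7.43, and CLN3, a membrane protein lost in juvenile neuronal ceroid lipofuscinosis, was at 7.36 on each array. OSTM1 itself, from the list of other membrane proteins, had values of 6.62, 6.90 and 7.56 and was 1.92-fold above control at 24 h. Both genes of the complex were thus at least 1.5-fold higher, but OSTM1 was named after its value was seen.

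The V-ATPase genes of the list differed little, and none lay below control at 24 h. Of the 12 subunit genes with a value of their own, 10 lay above control at 24 h, 2 were equal (ATP6V0C and ATP6V1G1, which fall just below control when the arrays are centred) and none was below, with a median difference of 0.23. The background for a value above control was 25.4% of all genes and 38.8% of genes above the median level. For a value equal to control it was 46.7% and 26.1%. Upwards, 2 of the 12 (16.7%) passed 1.5-fold, beside 4.49% and 7.39%, and none passed 2-fold. Centring or quantile normalization left the 24 h median of the V1 genes at 0.25 to 0.27 and that of the V0 genes at 0.13 to 0.18. At 3 h, 7 of the 12 (58.3%) lay above control and 5 below. Above control at that time were 31.2% of all genes and 52.1% of genes above the median level. The 3 h median of the 12 genes was 0.07, which turns negative when the arrays are centred on their 75th percentile. Quantile normalization lowered the 3 h median from 0.21 to 0.11 in the V1 sector and from -0.01 to -0.12 in the V0 sector. The other 32 lysosomal genes had a median of 0.08 at 24 h. Of these 32, 10 equalled control, while 8 (25%) were at least 1.5-fold higher and 1 was lower.

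In the V1 sector, the 2 genes past 1.5-fold were ATP6V1H and ATP6V1E1. ATP6V1H encodes the regulatory subunit H, and its values were 8.14 (control), 8.49 (3 h) and 8.94 (24 h), a 24 h difference of 0.81 or 1.75-fold. ATP6V1E1 encodes a subunit of the peripheral stalk, and its values were 8.29, 8.57 and 9.02, a difference of 0.74 or 1.67-fold. Both genes were highest at 24 h and between at 3 h. ATP6V1A, the catalytic subunit, had 9.00, 9.21 and 9.18, and ATP6V1D, of the central stalk, had 7.96, 8.35 and 8.23, so that both were slightly higher at 3 h than at 24 h. ATP6V1B2, the nucleotide-binding partner of ATP6V1A, had 9.61, 9.36 and 9.88, lowest at 3 h. ATP6V1C1 and the stalk subunit ATP6V1G1 lay within 0.08 of control at both times.

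In the V0 sector and the accessory gene, no value passed 1.5-fold at either time. ATP6V0A1, which encodes an isoform of the membrane subunit a, had values of 8.25 (control), 7.73 (3 h) and 8.70 (24 h). It had the lowest 3 h difference of the list, -0.52, and lay 0.45 above control at 24 h. ATP6V0E1 lay 0.37 above control at 24 h with values of 9.78, 9.88 and 10.15, and ATP6V0B lay 0.16 above it. ATP6V0C, which encodes the proton-carrying ring subunit, had 9.68, 9.64 and 9.68, and the accessory protein ATP6AP1 had 9.97, 9.96 and 10.08. The cluster that ATP6V0D1 shares with LOC100132855 had 9.05, 9.14 and 9.18.

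**Figure D3:**
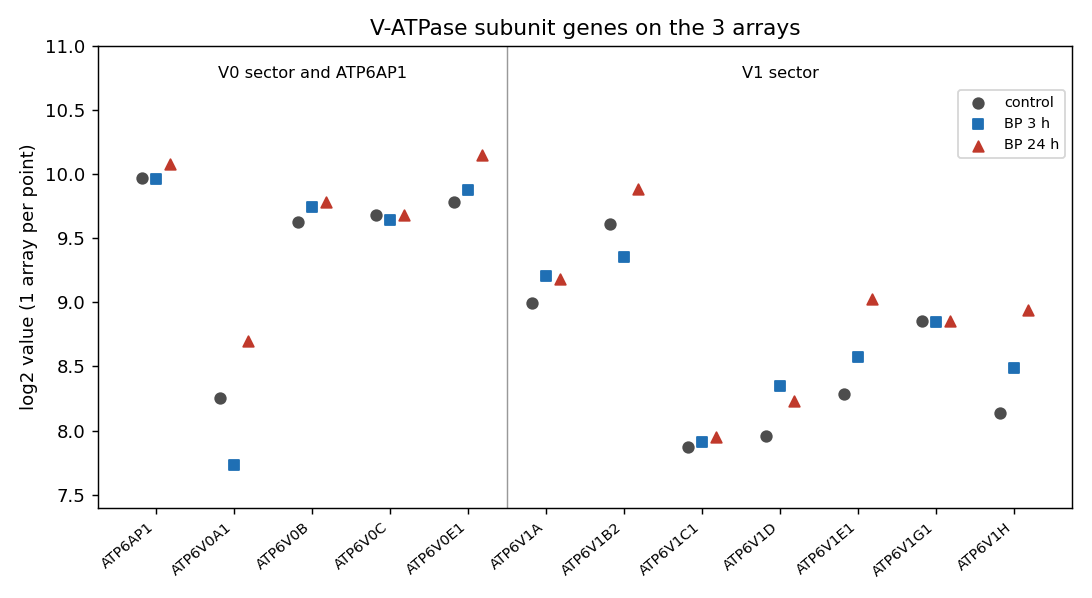
Log2 value of the 12 V-ATPase genes with a cluster of their own in control cells (circles), at 3 h (squares) and at 24 h (triangles), with 1 array per point. Heights are not comparable between genes. ATP6V1H and ATP6V1E1 are highest at 24 h, ATP6V0A1 and ATP6V1B2 are lowest at 3 h, and no 24 h value lies below its control.

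Lysosomal genes outside the list were counted in the same way. Another 72 measured genes, of 76 listed hydrolases, membrane proteins and V-ATPase subunits, had a median difference of 0 at both times. At 24 h, 4 of the 72 (5.56%) were at least 1.5-fold higher and 2 (2.78%) were lower, beside 4.49% and 4.04% of all genes. Of the 72 genes, 54 lay above the median level, where 7.39% of all genes were higher and 6.87% lower. None of the 72 was at least 2-fold higher, beside 1.53% of all genes. The higher ones included OSTM1, the iduronate sulfatase gene IDS, higher by 0.79, and PLD3, a lysosomal nuclease, by 0.68. The lower ones were NAAA, which hydrolyses N-acylethanolamines, and the cathepsin gene CTSL2, which differed by -0.99. NAAA had values of 8.74, 8.73 and 7.73 and was the only one of the 72 past 2-fold in either direction. Another 11 V-ATPase genes, which include isoforms of restricted tissues, were measured, and 5 of them lay above the median level. Their differences at 24 h ran from -0.48 to 0.20. The lowest was that of ATP6V0E2, a gene above the median level, and the highest that of ATP6V0D2, a gene below it. The 44 genes and the 72 were chosen in different ways, both with earlier results of these data known. No test of the difference between them was made.

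Genes of the signalling that governs the MiT/TFE factors included some of the larger differences. RRAGD and RRAGC encode the small GTPases that recruit mTORC1 and TFEB to lysosomes. RRAGD had values of 7.17 (control), 7.82 (3 h) and 8.67 (24 h), which is 2.83-fold higher at 24 h, and RRAGC had 7.69, 8.19 and 8.77, which is 2.13-fold higher. Both were highest at 24 h and between at 3 h. Of the 16 measured genes of this list, 4 (25.0%) were at least 1.5-fold higher at 24 h, beside 4.49% of all genes and 7.39% of those above the median level, the others being FNIP1, a folliculin partner, by 0.91, and TSC1, an inhibitor of mTORC1 signalling, by 0.90. The median of the list was 0.21. In the delivery of enzymes to lysosomes, 3 of 22 genes (13.6%) passed 1.5-fold upwards, AP3D1, VPS11 and VPS39, and none downwards, with a median of 0.07. All 22 lay above the median level, where 7.39% of genes passed upwards and 6.87% downwards.

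The autophagy list held several genes past 2-fold. Of its 31 measured genes, 28 (90.3%) lay above control at 24 h, beside 25.4% of all genes and 38.8% of genes above the median level. The 24 h value equalled control for 6.45% of this list, 46.7% of all genes and 26.1% of genes above the median level. At 1.5-fold 11 (35.5%) were higher, beside 4.49% and 7.39%, and at 2-fold 7 (22.6%) were, beside 1.53% and 2.48%. No gene was lower by 1.5-fold, and the median was 0.31. The largest were SQSTM1, the receptor p62, at 1.74, RB1CC1, the ULK1 complex scaffold FIP200, at 1.58, OPTN, a receptor, at 1.35 and WIPI1, which marks forming autophagosomes, at 1.33. SQSTM1 had values of 9.37, 9.78 and 11.11 and OPTN had 5.52, 5.59 and 6.86, so that in both the 24 h array stood apart. The control and 3 h values of OPTN lay below the median level of genes, so it was dim in control cells. Differences of the autophagy genes at 24 h use the same control array as those of the lysosomal genes. The autophagy list too was chosen with earlier results known.

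**Figure D4:**
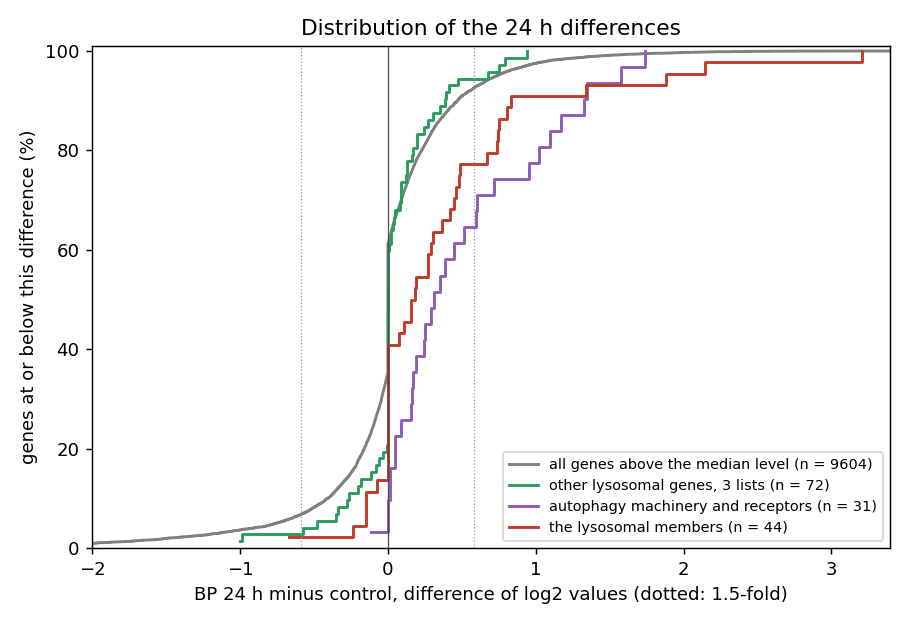
Percentage of genes at or below each 24 h difference from control, on the log2 scale, for the 44 lysosomal genes, 72 other lysosomal genes, 31 autophagy genes and the 9604 genes above the median level. Dotted lines mark 1.5-fold. The curve of the 44 lysosomal genes lies to the right of that of the 9604 genes, with medians of 0.17 and 0. The other lysosomal genes, which include genes below the median level, also have a median of 0.

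GPNMB, MITF and CTSS are also known from melanocytes and macrophages, so markers of these cells were examined. None of the 7 measured melanocyte markers lay above the median level of genes. Their log2 values ran from 2.82 to 5.63 on every array, 6 had the same value on the 3 arrays, and the exception, MLANA, differed by -0.19 at both times. None of the 8 measured macrophage markers lay above that level either. Their values ran from 2.17 to 5.96 in control cells and from 2.17 to 5.82 at 24 h, and no 24 h difference lay above 0.05. Of 8 markers of prostate epithelium 7 had a cluster of their own and all of these lay above the median level. Their median was 9.44 (control), 9.29 (3 h) and 7.92 (24 h), and 5 of the 7 were at least 2-fold lower at 24 h, as were 2.11% of all genes and 3.69% of genes above the median level. KLK3, which encodes PSA, had values of 10.16, 10.05 and 7.38, while the keratin genes KRT8 and KRT18 were higher by 0.94 and 0.11. The remaining marker, FOLH1, shares its clusters with PSMAL, and these differed by -0.29 and -0.31 at 24 h. Prostate marker genes and lysosomal genes thus differed at 24 h on the same array, and the part of this in the lysosomal values was not tested.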

How the data were processed

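Expression was measured on 3 arrays, and the deposited log2 values of 33297 transcript clusters were taken unchanged. Expression Console and RMA are named in the processing notes of the submitters, MAS5.0 and GeneSpring in the methods of the paper. Which of them made the values is not given in any source consulted. Gene symbols and cytobands came from the annotation columns of a deposited comparison table. The deposited tables also hold the authors' own log2 ratios and folds, which were not used. Clusters with 1 symbol (20087) gave 19208 genes, and the cluster with the highest mean was used for 627 genes with several. Clusters with several symbols (1904) were not counted.

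Differences of log2 values were computed without further normalization or filter. The threshold of 2-fold is the one the paper used and 1.5-fold was added. The lysosomal genes and the other lists were chosen with earlier results of these data known. Array values are given for every gene of the list at least 1.5-fold from control and for the member of each role group with the highest mean, and genes of other lists are named where they passed 2-fold, at most 4 per list. A few 1.5-fold genes of other lists were named after their values were seen. Results for a few genes of these lists are left out of the text. The alternatives were centring of the arrays (at the median, or at the 75th percentile), quantile normalization, the mean of the clusters of a gene, a filter to genes above the median level, and a 3-fold threshold. The calculations were tested on simulated data. Python 3.11.15, numpy 2.4.6, pandas 2.3.3 and matplotlib 3.10.9 were used.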

Additional observations from a re-analysis of the deposited data

Results flagged for a closer look

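The 3 h and 24 h values lay on opposite sides of control, each by at least 0.2 on the log2 scale, for 3 of the 44 lysosomal genes. The limit of 0.2 was chosen after the values were seen, and at any size 8 genes had values on opposite sides. The share of all genes with such values was not counted, so these counts have no background. ATP6V0A1 was 0.52 below control at 3 h (-0.52) and 0.45 above it at 24 h, so the later array was 0.96 above the earlier one. ATP6V1B2 differed by -0.26 at 3 h and by 0.27 at 24 h, with the later array 0.53 above the earlier one. GLA differed by 0.22 at 3 h and by -0.24 at 24 h, a difference between the times of -0.46. With 1 array per condition, the difference between the times was not tested for any of these genes, and both comparisons use the same control array.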

How the results depend on the processing

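The count of lysosomal genes at least 1.5-fold higher at 3 h was 1 (MANBA) and became 0 when each array was centred on its 75th percentile, which lowers every 3 h difference by 0.08. The 3 h median of 0.04 changed sign under this centring and under quantile normalization, by less than 0.1. The median of 24 h minus 3 h went from 0.08 to between 0.06 and 0.16, with 0.13 after centring on the 75th percentile and 0.16 after quantile normalization. At 24 h, 3 to 4 genes were at least 2-fold higher, 9 to 10 were at least 1.5-fold higher and 1 was lower. At a 3-fold threshold 3 were higher. Over all genes, 862 were at least 1.5-fold higher and 776 lower at 24 h, against 807 and 810 after centring on the 75th percentile. None of the 11 genes at least 1.5-fold from control changed its side of control at 24 h. The median of the membrane glycoproteins at 24 h fell from 0.53 to 0.31 without LAMP3, and that of the MiT/TFE factors went from 0 to 0.30 without MITF. No paired analysis was possible because each condition had 1 array. Small differences, the values of dim genes and values repeated exactly on several arrays cannot be judged without replicates.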

Other observations

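The cluster annotated to both CD68, a lysosomal glycoprotein known as a macrophage marker, and EIF4A1, a translation initiation factor, had log2 values of 6.47 (control), 6.44 (3 h) and 7.19 (24 h). The 24 h array was 0.72 above control. Because the cluster carries both symbols, the value belongs to neither gene alone. SLC11A1, a metal transporter of phagocyte lysosomes, had values of 4.94, 4.26 and 4.59, a 3 h difference of -0.67. It lay below the median level of genes on each array. FLCN, the gene of folliculin, lay 0.28 above control at 3 h and 0.58 above it at 24 h, just short of 1.5-fold.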
